A study of Homo sapiens with 2 samples.

Results

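The ends of the 22 autosomes were examined in a nucleosome map of ARPE-19, a human line grown from the pigmented epithelium behind the retina. An end was the first 2 Mb of a chromosome (p end) or its last 2 Mb (q end) in hg38. The short arms of the acrocentric chromosomes 13, 14, 15, 21 and 22 were left out, which gave 39 ends, 17 of them p ends and 22 q ends. They held 85443 of the 2558490 autosomal positions in the deposited list, 3.34% (95% Wilson interval 3.32 to 3.36%), on 76.2 Mb of determined sequence, 2.76% of the autosomes. Each end was compared with the sequence 5 to 10 Mb from the same chromosome end, which held 218530 positions on 194.9 Mb and is called the control below. The rule for the members uses place alone.

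The study mapped nucleosomes by MNase-seq: micrococcal nuclease cuts the DNA between nucleosomes, and the protected fragments are sequenced. Both samples, numbered as batches 1 and 2, were ARPE-19 cells in interphase under normal culture, with no treated or control arm, and fragments of about 150 bp were recovered from a gel after 5 min of digestion at 37 °C. The authors deposited 1 list of single-base positions without height or score, which does not separate the batches, so no value has a spread between samples and the read depth is unknown. Every SD and p-value below is over chromosomes or ends within this list; it tells whether chromosomes shared a difference, not how it would vary between cultures.

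Human chromosomes end in tandem repeats of a short G-rich unit that is bound by the shelterin complex. Inside these telomeres lie subtelomeric blocks that several chromosomes share as near copies, and then gene-rich sequence with a high GC content and many CpG islands and minisatellites. Near copies matter for a map made from short reads, since a fragment from one copy also matches the others.

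Positions began close to the outermost determined base of most ends. On 5p the outermost position lay 4.10 kb inside that base, and on 12q 13.4 kb. Over the 39 ends this distance had a median of 5.80 kb, from 0.228 kb on 20q to 102.6 kb on 6p, and 27 ends had a position within 20 kb.

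The windows of 300 bp with the most positions show how positions overlapped at some ends. The first lies in a crowded block of 4q that is described below. The windows of 5p and 6q shared the next rank with 8 positions each. The 6q window is shown because it repeats itself, which the 5p window does not (34.0% of bases at its best shift). Shifted by 39 bp against itself, the 6q window matches at 87.0% of bases, against 33.8% for the best shift of the 4q window. Capitals mark the bases at which the list gives a position, 9 on 4q and 8 on 6q, although a nucleosome protects about 150 bp.
chr4:189759270-189759569 (4q): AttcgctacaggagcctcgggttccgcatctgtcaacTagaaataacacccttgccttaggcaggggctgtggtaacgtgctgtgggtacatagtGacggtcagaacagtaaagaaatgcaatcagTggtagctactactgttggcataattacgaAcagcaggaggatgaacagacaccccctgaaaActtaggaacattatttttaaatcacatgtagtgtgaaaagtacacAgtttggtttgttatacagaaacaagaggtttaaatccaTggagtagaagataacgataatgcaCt
chr6:170398913-170399212 (6q): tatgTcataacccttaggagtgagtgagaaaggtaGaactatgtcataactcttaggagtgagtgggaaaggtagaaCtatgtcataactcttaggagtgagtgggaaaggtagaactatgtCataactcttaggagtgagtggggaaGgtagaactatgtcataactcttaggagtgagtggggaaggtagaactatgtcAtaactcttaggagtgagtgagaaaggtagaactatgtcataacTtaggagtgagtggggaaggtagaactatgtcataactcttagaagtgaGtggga

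No difference in density between the ends and the controls at 5 to 10 Mb was detected. Averaged over 22 chromosomes with both ends pooled, the ends held 1.14 positions per kb and the controls 1.14, a log2 ratio of -0.027 ± 0.29 (SD, n = 22), positive on 12 of 22 chromosomes. The sign-flip permutation test over chromosomes, two-sided with 100000 draws, gave p = 0.671 (Benjamini-Hochberg adjusted over 16 tests, 0.711). The 95% interval of the difference ran from -0.15 to 0.10 on the log2 scale. Counted by end, 19 of 39 were denser than their control. Among 2244 comparisons of 2-Mb windows elsewhere on the autosomes with sequence 3 to 8 Mb further along, 48.7% were denser, so the ends stood near this background. The result depended on the control: against sequence 2 to 4 Mb from the same end it came to -0.16 on the log2 scale, with 17 of 22 chromosomes below 0 (sign-flip permutation p = 0.00784, adjusted 0.0209).

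The spread between ends was wide. Density at single ends averaged 1.12 per kb ± 0.33 (SD, n = 39 ends), with a median of 1.09. The lowest were 1p at 0.546, 3p at 0.552 and 1q at 0.637 per kb, and the highest 15q at 2.10, 5p at 1.64 and 9q at 1.59 per kb. Neighbouring ranks lay close together, and 15q was the one end above 2 per kb. The long arm of chromosome 15 is dense well inside the end too, since its control had 1.92 per kb. Across ends, the density of an end and that of its control had a Pearson correlation of 0.63 and a Spearman correlation of 0.55 (n = 39 ends, which share 1 list and lie in pairs on 17 chromosomes).

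Relative to the control, 1p was the lowest end, at 0.546 against 1.28 per kb (0.427-fold, 1005 positions). It was followed by 3p, at 0.552 against 0.927 per kb, and 17q, at 0.965 against 1.39 per kb. The highest were 7p at 1.39 against 0.886 per kb (1.57-fold), 4q at 1.56 against 1.02 (1.53-fold) and 6p at 1.25 against 0.905 (1.38-fold). Only 1p differed over 2-fold, and it was lower; in the background 4.01% of windows were over 2-fold less dense and 3.34% over 2-fold denser. The values of 4q and 1p depended on part of their bins. Without its 10-kb bins holding over 67 positions, more than 150-bp fragments side by side would fill, 4q fell to 0.928 per kb and a log2 ratio of -0.14. Without bins of repeated sequence, defined below, 1p stood at 0.875 per kb and a log2 ratio of -0.55. Ratios of the named ends with GC content taken into account are also given below.

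**Figure D1:**
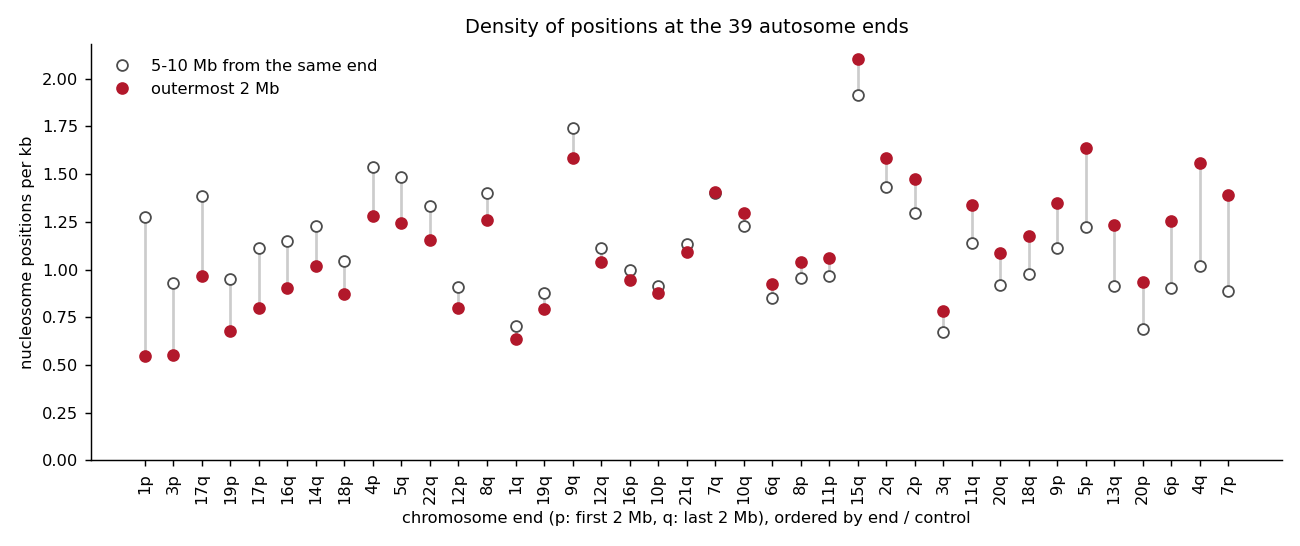
Positions per kb of determined sequence at each of the 39 ends (filled, outermost 2 Mb) and 5 to 10 Mb from the same end (open), ordered by their ratio. Filled points lie below the open ones at 20 ends and above at 19, with 1p the farthest below and 7p the farthest above.

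Within the ends, density fell towards the telomere. The outermost 100 kb had 0.667 positions per kb ± 0.95 (SD, n = 35 ends with over 20 kb of determined sequence there), and 4 of the 35 had none. From 100 to 250 kb the mean was 0.770 ± 0.38 and from 250 to 500 kb it was 1.13 ± 0.68 (SD, n = 39 ends each). From 1500 to 2000 kb it was 1.2 ± 0.34, and from 2 to 5 Mb 1.22 ± 0.30. The outer 500 kb had 0.977 per kb against 1.19 in the remaining 1.5 Mb, a log2 ratio of -0.32 ± 0.39 (SD, n = 22 chromosomes), lower on 20 of 22 (sign-flip permutation p = 0.00082, adjusted 0.00328).

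Repeated sequence rose along the same path. Stretches of 100 bp, taken every 100 bp, were called repeated where they occurred more than once on the autosomes on either strand. They made up 43.7% of the outermost 100 kb, 22% from 100 to 250 kb, 5.63% from 250 to 500 kb and 1.82% of the controls. When 10-kb bins with over 20% repeated stretches were left out, a choice made after the data were seen, the outer 500 kb had 1.13 per kb and the inner part 1.2. The log2 ratio was then -0.12 ± 0.36, lower on 17 of 22 chromosomes (sign-flip permutation p = 0.13, adjusted 0.253). The lower density of the outer 500 kb was therefore not detected outside repeated bins.

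**Figure D2:**
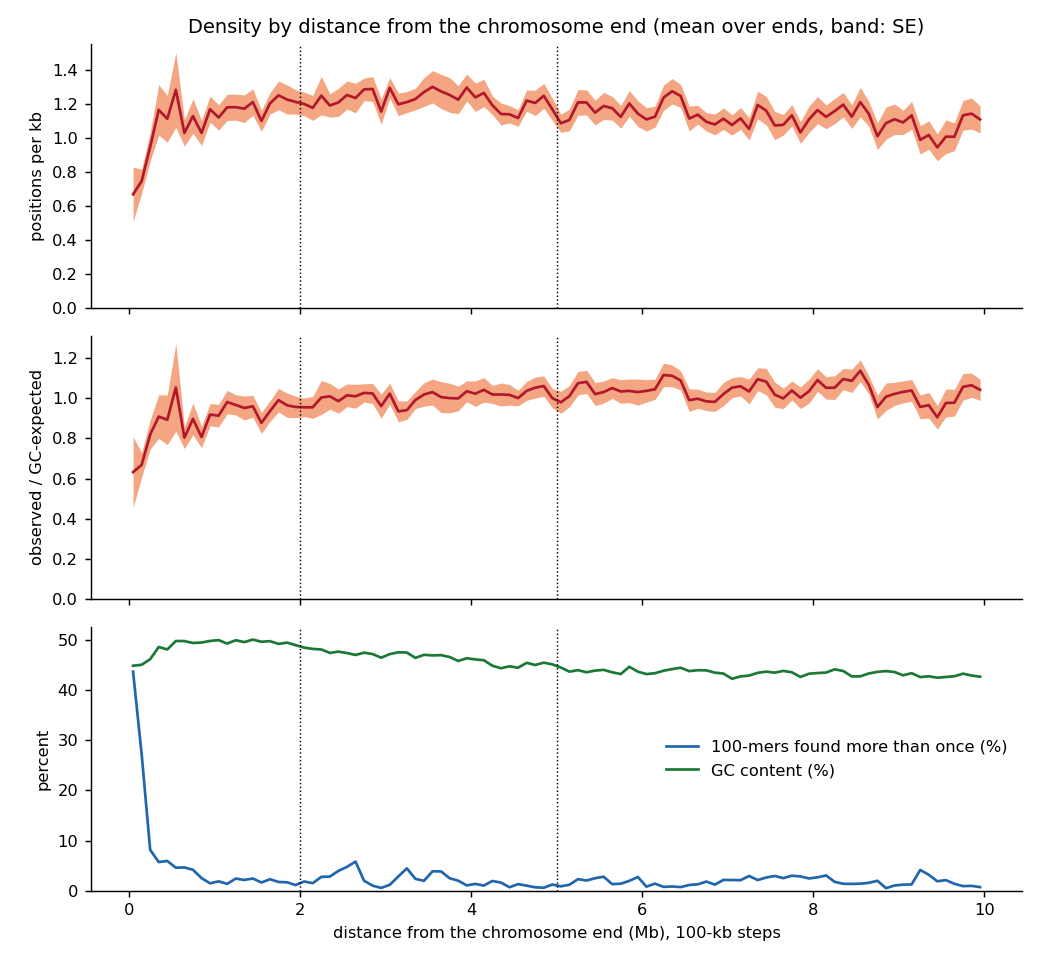
Means over ends in 100-kb steps from the chromosome end to 10 Mb: positions per kb (top), observed positions over those expected from GC content (middle), and repeated 100-bp stretches and GC content in percent (bottom). Bands are standard errors over ends and dotted lines mark 2 and 5 Mb. Density starts at 0.667 per kb in the outermost step, where repeated stretches reach 43.7%.

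Stretches without any position were more frequent at the ends. Of 7613 bins of 10 kb, 290 were empty, 3.81% (95% Wilson interval 3.40 to 4.26%, counting error only), against 174 of 19466 in the controls, 0.894% (0.771 to 1.04%). Per chromosome the share was higher by 2.81 percentage points ± 3.61 (SD, n = 22), on 20 of 22 chromosomes (sign-flip permutation p = 1e-05, the smallest the draws allow, adjusted 0.00016). Empty bins occurred at 33 of 39 ends, and the 5 ends with the most held 124 of them, 52 on 1p alone. At the ends 66.9% of empty bins had over 20% repeated stretches, against 4.26% of bins with a position. In bins with over 50% repeated stretches, 62.7% were empty at the ends and 37.0% in the controls. In bins without any, the shares were 1.13% and 0.477%. Leaving out the bins over 20% repeated narrowed the difference to 0.814 points ± 1.37 (higher on 12 and lower on 9 of 22 chromosomes, sign-flip permutation p = 0.00771, adjusted 0.0247).

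Gaps of at least 50 kb of determined sequence without a position numbered 17 at the ends, on 12 of 39 ends and 1721 kb in all. The controls, over more than double the sequence, had 8 gaps. At the ends 14 of the 17 had over 20% repeated stretches. The longest was on 1p, from 278423 to 597618, with 219.2 kb of determined sequence and 94.7% repeated stretches; it holds the start site of the olfactory receptor gene OR4F29. On 5q a gap of 169.5 kb, 96.1% repeated, holds OR4F3.

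In 3 gaps the sequence was nearly free of repeated stretches. The longest was on 12q, from 132922014 to 133107728 on chromosome 12, with 185.7 kb, a GC content of 43.0% and 0.824% repeated stretches. At the rate of its end and for its GC content 150.8 positions would have fallen there, and the list has none. It holds the start sites of the zinc finger genes ZNF605, ZNF26, ZNF84 and ZNF140. On 6q, 137.9 kb from 169879447 to 170017325 had no position and no protein-coding start site, with 50.6% GC and 1.08% repeated stretches. On 10q, 70.2 kb from 131844073 to 131914284 had none and holds the start site of PPP2R2D, which encodes a regulatory subunit of protein phosphatase 2A. The controls had 4 gaps with up to 20% repeated stretches. The cause of these gaps was not tested.

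Other stretches were crowded beyond what packing allows. Bins of 10 kb with over 67 positions numbered 24 at the ends, at 6 of 39 ends, and 2 in the controls. The largest block lies on 4q, from 189620001 to 189760000 on chromosome 4: 14 neighbouring bins with 1355 positions, 9.68 per kb, between flanks of 1.15 and 1.16 per kb. Its GC content was 41.7%, for which 1.01 per kb were expected, and 12.3% of its stretches were repeated. It overlaps the noncoding genes LINC01262 and ENSG00000272566. On 4p, a block of 3 bins from 40001 to 70000 had 365 positions, 12.2 per kb, with 0.333% repeated stretches. On 6p, 4 crowded bins lay in and beside DUSP22, a dual-specificity phosphatase gene, with 7.35 and 7.4 per kb and no repeated stretch. Within the block of 4q, neighbours lay a median of 72.0 bp apart and 37.5% of pairs were under 60 bp. On 4p these were 65 bp and 42.9%. Such positions overlap and are uncertain as counts of nucleosomes. The cause of the crowding was not tested.

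**Figure D3:**
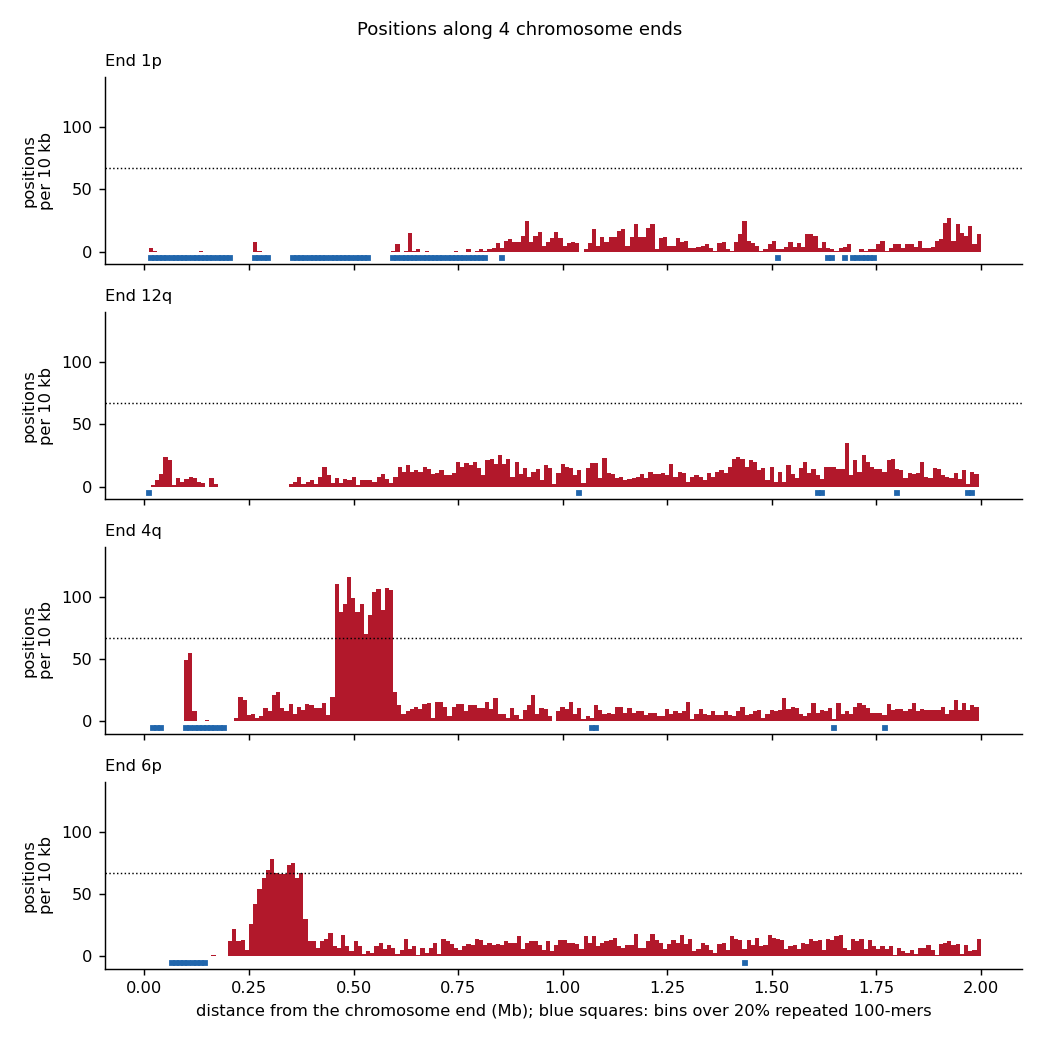
Positions per 10-kb bin along the outermost 2 Mb of 1p, 12q, 4q and 6p, by distance from the chromosome end. The dotted line marks 67 positions per bin and blue squares mark bins with over 20% repeated 100-bp stretches. On 1p the sparse outer part coincides with repeated bins, the 185.7-kb gap on 12q does not. The 4q block starts and stops within a bin. Counts on 6p climb over several bins away from the chromosome end and then fall from 67 to 30 and 12 in neighbouring bins.

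Base composition set the ends apart from the controls. Their GC content averaged 49.2% ± 5.46 (SD, n = 39 ends) against 43.6% ± 3.63, and was higher at 36 of 39 ends. They held 1237 protein-coding start sites, 16.2 per Mb against 8.82, and 1975 CpG islands, 25.9 per Mb against 7.94. Density in this map varied with GC content, rising from AT-rich sequence and falling again above 64% GC, so the density that GC content alone would give was computed from all autosomes. Against this expectation the ends were less dense: the observed over expected ratio was 0.917 at the ends and 1.05 in the controls, a log2 ratio of -0.22 ± 0.21 (SD, n = 22 chromosomes). The ratio was below 0 on 19 of 22 chromosomes (sign-flip permutation p = 0.00012, adjusted 0.00096), and on 33 of 39 ends. Without repeated bins it was -0.19 ± 0.19, negative on 18 of 22 (sign-flip permutation p = 0.00024). The largest exception was 4q, at 1.78 times its expectation, the end that holds the crowded block. Among the ends named above for their ratio to the control, 7p went from a log2 ratio of 0.65 to 0.054 with the GC expectation. In the same way 3p went from -0.75 to -0.15. The others changed less, with -1.08 on 1p, -0.47 on 17q, 0.68 on 4q and 0.27 on 6p.

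The same was seen within classes of GC content. In sequence of 48 to 52% GC the ends had 1.58 positions per kb and the controls 1.90, and at 60 to 64% GC 1.68 and 1.99. The ends were lower in every class of 4% width from 36 to 68% GC and from 72 to 76%, and higher from 68 to 72%, at 0.869 against 0.716 per kb. They were also higher in the classes below 36% GC: at 28 to 32% GC the ends had 0.120 per kb and the controls 0.0951, on 454 and 1382 positions. These values were pooled over ends and not tested.

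CpG islands, where the CpG dinucleotide is frequent and many promoters lie, were emptier at the ends. Island interiors, more than 200 bp inside the edge, held 658 positions in 1926 kb at the ends and 558 in 1214 kb in the controls. The means over chromosomes were 0.338 and 0.485 per kb, a log2 ratio of -0.51 ± 0.58 (SD, n = 22), lower on 19 of 22 (sign-flip permutation p = 0.00052, adjusted 0.00277). Borders, within 200 bp of the edge, had 0.587 against 0.721 per kb, a log2 ratio of -0.30 ± 0.44, lower on 15 of 22 (sign-flip permutation p = 0.00541, adjusted 0.0173). With the GC expectation the log2 ratios were -0.48 for interiors and -0.26 for borders. Without repeated bins the interior ratio was -0.39, lower on 18 of 22 chromosomes (sign-flip permutation p = 0.00191, adjusted 0.00764). The border ratio was then -0.25, lower on 15 of 22 (sign-flip permutation p = 0.0166, adjusted 0.0403). With controls at 10 to 15 Mb the border no longer passed, at -0.23 (sign-flip permutation p = 0.0798, adjusted 0.16). Sequence over 4000 bp from any island, called open sea, had 1.16 per kb at the ends and 1.15 in the controls, a log2 ratio of -0.025 ± 0.31 (sign-flip permutation p = 0.711, 95% interval -0.16 to 0.11). With the GC expectation the open sea of the ends was less dense, at -0.21, lower on 18 of 22 chromosomes (sign-flip permutation p = 0.00043).

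At start sites of protein-coding genes in islands, a gap at the start site was followed by a maximum downstream, at the ends as in the controls. In 853 sites inside islands, the 150 bp from -100 to +50 held 10 positions, 0.0782 per kb, against 12 positions and 0.0804 per kb at 995 control sites. The first downstream maximum, the place of the first nucleosome of the gene, fell at 125 to 150 bp in both, with 2.16 per kb at the ends and 3.50 per kb in the controls. An upstream maximum lay at -250 to -225 bp in both, at 1.59 and 1.25 per kb. At 384 sites outside islands no gap was seen: -100 to +50 bp held 1.11 per kb, with a downstream maximum of 2.08 per kb at 100 to 125 bp.

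The depth of the gap was compared as the log2 ratio of the density from -200 to +50 bp to that 1000 to 2000 bp away. At island sites it was -1.64 at the ends and -1.17 in the controls, a difference of -0.47 ± 1.48 (SD, n = 21 chromosomes, sign-flip permutation p = 0.157, adjusted 0.253, 95% interval -1.14 to 0.20). Outside islands it was -0.055 and 0.093, a difference of -0.15 ± 1.35 (n = 16 chromosomes, sign-flip permutation p = 0.664, 95% interval -0.87 to 0.57). With 52 and 77 positions in the island windows, no difference was detected. The result for islands depended on the setting: with the GC expectation it reversed to 0.29, higher on 12 of 21 chromosomes (sign-flip permutation p = 0.303), and with controls at 10 to 15 Mb it was -0.95 (sign-flip permutation p = 0.00307, adjusted 0.00982).

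The first downstream nucleosome, read in a window that begins 100 bp downstream of all start sites, stood less far above its flanks at the ends. The log2 ratio to the flanks was 0.53 against 1.10, a difference of -0.57 ± 1.03 (SD, n = 22), lower on 17 of 22 chromosomes (sign-flip permutation p = 0.0176, adjusted 0.0403). It rests on 146 and 281 positions. The difference did not pass without chromosomes 9 and 15 (-0.58, adjusted p = 0.0629) or with close positions merged (-0.45, adjusted p = 0.101) in the same permutation test. With the GC expectation it turned to 0.12, higher on 13 of 22 chromosomes (sign-flip permutation p = 0.652).

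**Figure D4:**
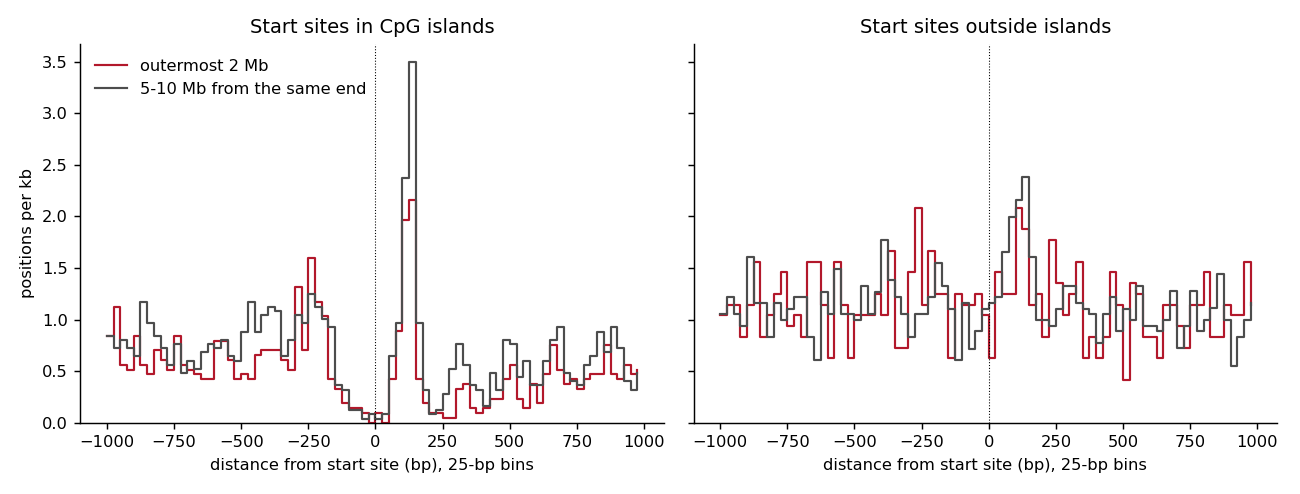
Positions per kb in 25-bp bins from -1000 to +1000 bp of protein-coding start sites, inside CpG islands (left) and outside (right), for the ends and the controls. Both island profiles drop near the start site and peak at 125 to 150 bp, at 2.16 per kb for the ends and 3.50 per kb for the controls.

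CTCF binds DNA through zinc fingers, and nucleosomes are known to form ordered arrays around its sites. At 669 matches to its consensus on either strand at the ends, density 100 to 200 bp away was 1.79 per kb, against 1.00 per kb within 50 bp of the motif centre; at 913 control matches it was 2.79 and 1.17 per kb. Per chromosome the log2 ratio of flanks to motif was 0.88 and 1.08, a difference of -0.20 ± 1.13 (SD, n = 22, sign-flip permutation p = 0.418, 95% interval -0.70 to 0.30). Binding of CTCF was not measured.

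No difference in the spacing of nucleosomes was detected. Counting all pairs of positions, the first maximum lay at 185 bp in the ends and at 185 bp in the controls. The line through the first 7 maxima had a slope of 186.8 and 188.6 bp per nucleosome. Each maximum was sought in a preset window, and the windows followed each other at regular steps close to these slopes. The slopes were thus largely set by the search and do not measure the spacing independently. Per chromosome the first maximum differed by 0.364 bp ± 3.11 (SD, n = 22, sign-flip permutation p = 0.637, 95% interval -1.02 to 1.74 bp). The height of the first maximum over the following minimum, as a log2 ratio of pairs, was 2.09 at the ends and 2.00 in the controls (difference 0.083 ± 0.45, sign-flip permutation p = 0.411). With positions under 100 bp apart joined into 1, it came to 0.21 ± 0.26, above 0 on 18 of 22 (sign-flip permutation p = 0.00156, adjusted 0.00499).

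Neighbours at the ends lay a median of 400 bp apart over all pairs, against 483 bp in the controls. Per chromosome the medians averaged 460.8 and 504.1 bp, a log2 ratio of -0.17 ± 0.36, negative on 17 of 22 chromosomes, which did not pass after adjustment (sign-flip permutation p = 0.04, adjusted 0.08). Pairs under 60 bp, which overlap, made up 10.3% of neighbours at the ends (95% Wilson interval 10.1 to 10.5%, counting error only) and 9.18% in the controls (9.06 to 9.30%). The difference per chromosome was 0.749 points ± 2.45, positive on 13 of 22 and negative on 9 (sign-flip permutation p = 0.158, adjusted 0.253). In both measures the largest difference was on chromosome 4, which holds the crowded blocks of 4p and 4q. Its medians were 199 bp at the ends and 400 bp in the controls, and its shares under 60 bp 19.6% and 9.65%. Distances over 10 kb made up 0.235% of neighbours at the ends and 0.130% in the controls.

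**Figure D5:**
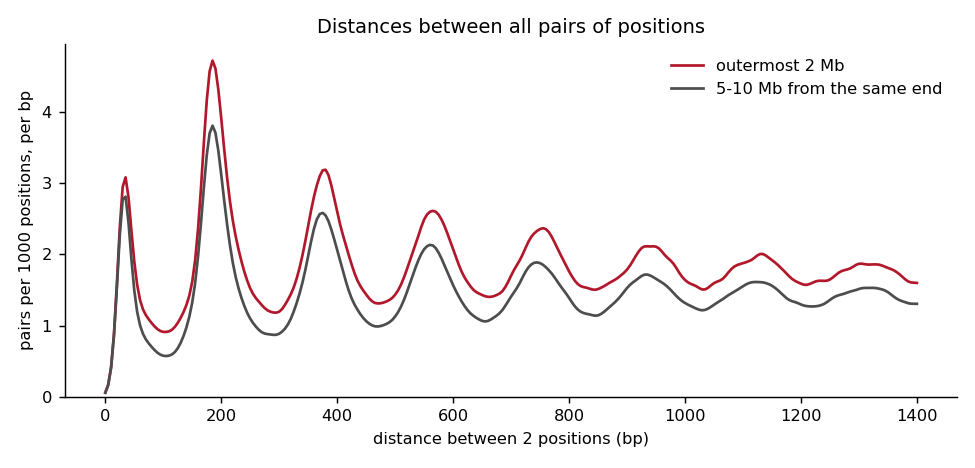
Number of pairs of positions per 1000 positions and per bp of distance, smoothed, for the ends and the controls. Both curves have a narrow maximum near 32 bp and regular maxima from 185 bp on. The first of these reaches 4.72 pairs for the ends and 3.8 for the controls. The minimum after it is also higher for the ends, at 1.18 against 0.868 pairs.

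The p and q ends were compared on the 17 chromosomes with both. The p ends had 1.03 positions per kb and the q ends 1.15, a log2 ratio of -0.19 ± 0.28 (SD, n = 17), lower on 14 of 17 chromosomes (sign-flip permutation p = 0.016, adjusted 0.0403). The difference did not pass with the GC expectation, at -0.097 (sign-flip permutation p = 0.296, adjusted 0.474). Without chromosome 9 it was -0.18 (n = 16, sign-flip permutation p = 0.0243, adjusted 0.0556), and without repeated bins -0.17 (sign-flip permutation p = 0.0289, adjusted 0.0661).

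Genes at the ends differed as widely as the ends themselves. Of 1161 protein-coding genes of at least 2 kb with a start site there, 53 had no position in the gene and the median density was 0.821 per kb. Only 430 of the 1161 were denser than their end, so a value below the end was the usual case. The start site with the most positions within 2000 bp was that of ZNF595 (chromosome 4, start site at 53321, in an island) with 54, in the crowded block of 4p. Next were SCGB1C1, a secretoglobin (chromosome 11, start site at 193078), with 22, and SLC6A19, a neutral amino acid transporter (chromosome 5, start site at 1201595), with 19. BTNL9, C1QTNF8 and DUSP22 had 16 each. The median over 1237 start sites was 3, and 162 start sites, 13.1%, had none.

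The alpha globin cluster on 16p, which makes the alpha-like chains of haemoglobin in red cells, had positions in 2 of 5 genes. HBM had 1.63 per kb over 12.9 kb (chromosome 16, 153892 to 166764) and HBZ 0.934 per kb, against 0.946 per kb for the end. The annotated spans of HBM and HBZ overlap and begin far upstream of the start sites used here, at 165978 and 152644. HBA2, HBA1 and HBQ1, each under 1 kb long, held none, so the counts covered unlike lengths. Within 2000 bp of the start site, HBZ and HBM had 3 positions each, HBA2 4, HBA1 7 and HBQ1 1. HBA2 and HBA1, near copies of each other, lay in bins with 25% repeated stretches. The 4 gel-forming mucin genes of 11p, whose coding exons contain long tandem repeats, all held positions. MUC6 had 1.72 per kb, MUC5B 1.36, MUC2 1.12 and MUC5AC 0.857, against 1.06 per kb for the end. In the zinc finger genes of 4p, ZNF595 had 5.73 per kb, and ZNF718, ZNF732, ZNF141 and ZNF721 had between 0.423 and 0.744 per kb, below the 1.28 of the end. The IFITM genes of 11p, which encode interferon-induced membrane proteins, ranged from 0.382 per kb at IFITM1 to 1.22 at IFITM3.

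The OR4F and DUX4 families, which lie largely in repeated sequence, were mostly empty. The OR4F olfactory receptor genes are a family spread over several chromosome ends. Of its 9 genes, 6 held no position, and all 6 lay in bins with over 20% repeated stretches. Among these 6, OR4F5 was 6.17 kb long and the others 0.939 to 1.07 kb. OR4F6 and OR4F15 on 15q, with no repeated stretches, had 2.37 and 1.38 per kb, where the end had 2.10. DUX4, a germline transcription factor gene carried in the D4Z4 tandem repeat of 4q, and its 23 annotated DUX4L copies on 4q and 10q held no position in any of 24 genes. All of them lay in bins with 50% or more repeated stretches, and the DUX4L copies were 0.678 to 1.27 kb long. The share of empty genes among all genes this short was not computed. The 53 empty genes of 1161 given above were all at least 2 kb long. FRG1, on the centromere side of that array, had 0.537 per kb and lay in bins with 6.67% repeated stretches. Other genes in repeated bins held positions: SCGB1C1, at 41% repeated stretches, had 6.68 per kb, TUBB8, at 23%, had 0.697 per kb and OR4F17, at 84%, had 3 positions. In the empty genes a count of 0 cannot be told apart from reads that matched several copies or, in the short ones, from their length.

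Single genes known for other roles were described in the same way. Among all 1161 genes of at least 2 kb, 430 were denser than their end. TERT, the catalytic subunit of telomerase (chromosome 5, 1253147 to 1295068, minus strand), had 1.34 per kb against 1.64 for 5p. FGFR3, a fibroblast growth factor receptor, had 1.28 per kb, as did 4p. HRAS had 0.591 per kb, AXIN1, a scaffold of the Wnt pathway, 0.720, and RTEL1, a helicase that acts at telomeres, 0.702, each below its end. None of these genes had a position from -200 to +50 bp of its start site, where 1040 of the 1161 genes of at least 2 kb had none.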

How the data were processed

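MNase-seq was done on 2 samples of interphase ARPE-19 cells. The authors aligned reads with Bowtie2 to hg38, per the submitters' processing notes; the caller, its thresholds and any pooling are not given in the sources used here. The deposited file lists 1-bp intervals and has no other unit. Of 2634347 rows, 2634343 were distinct, and no autosomal position fell on an undetermined base. The 16 comparisons flipped the signs of chromosome values in 100000 draws (permutation test, two-sided), with Benjamini-Hochberg adjustment and 0.05 as threshold. Counts in islands, start site and CTCF windows had 0.5 added per chromosome. The GC expectation gave each base the autosomal density of its GC class (2% wide, 200 bp around the base). Islands were segments over 500 bp from a running score of +17 per CpG and -1 per other base, a GC content of 55% or more and a CpG observed over expected ratio above 0.65. Genes were from GENCODE 44, with the MANE Select or canonical start site. Pair counts were smoothed with a Gaussian of SD 8 bp. Intervals of differences used the t distribution over chromosomes. The code was tested on simulated positions. Ends, lists and tests were chosen with earlier results of these data known. The named ends were the 3 highest and lowest by ratio and by density, the named start sites the 5 with most positions, with ties. Python 3.11.15, numpy 2.4.6, scipy 1.17.1, pandas 2.3.3, numba 0.67.0 and matplotlib 3.10.9 were used. A gene of the named groups and the sequences of the outermost bases are not reported here.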

Additional observations from a re-analysis of the deposited data

Results flagged for a closer look

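The list held 1388 rows on 12 unplaced or alternate sequences, which no comparison used. They are listed because they lie outside the main measurement; no level was expected for them and none was tested. The sequence with the most had 565 rows.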

How the results depend on the processing

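No paired analysis was possible because the list does not separate the 2 samples, and for the same reason neither sample could be left out. Over 16 results, 76 alternative values were computed: 56 changed neither direction nor call, 7 no longer passed, 6 passed only under the alternative and 7 reversed. The cause was not tested in any of them. The log2 ratio of densities, -0.027, was -0.22 with the GC expectation, -0.29 for the outermost 500 kb and -0.16 against controls at 2 to 4 Mb, and passed in all 3. It reversed, without passing, to 0.047 with controls at 10 to 15 Mb, 0.016 without empty bins and 0.012 without repeated bins. The open sea ratio was -0.21 with the GC expectation and 0.051 with controls at 10 to 15 Mb. The gap at island start sites reversed to 0.29 with the GC expectation and was -0.95 with controls at 10 to 15 Mb, and outside islands it reversed to 0.31 in a window from -150 to 0 bp. The first downstream nucleosome was at 0.12 with the GC expectation, -0.58 without chromosomes 9 and 15 and -0.45 with merged positions. Merging took the periodicity difference to 0.21. The p against q difference, which has no value for chromosome 15, was -0.18 without chromosome 9, -0.097 with the GC expectation and -0.17 without repeated bins. The outer against inner ratio was -0.12 without repeated bins, and the border ratio -0.23 with controls at 10 to 15 Mb. The read depth is unknown; counts in start site windows limit those comparisons.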
